A study of Homo sapiens with 28 samples.

Results

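The 5 genes NKG7, CST7, SRGN, PRF1 and GZMB, which belong to the granules of cytotoxic lymphocytes, were followed through the deposited gene tables of a monocytic cell line. They were 5 of 56809 gene symbols, and were chosen by the NKG7 level, which stood out as high in these libraries. The NKG7 level is therefore a description and not a test. The libraries came from U937, a human monocytic line, in which subunits of the transcription factor family NF-kB had been knocked out by CRISPR. The knockout groups were p50, p52, cREL and RELB, with 2 clones each, and p65, with 3 clones. They were set against 3 clones (CTR) whose guide RNAs had no specific target. Each of the 14 clones gave 1 library after lipopolysaccharide (LPS, 500 ng/ml, 6 h) and 1 untreated library, so that there were 12 groups and 28 libraries. All groups, CTR included, are clones of this line that had received guide RNAs. The labels put the clones in 3 sample batches, of which batch A held no CTR clone.

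NK cells and cytotoxic T cells kill by releasing granules onto a target cell. PRF1 encodes perforin, which forms pores in the target membrane, and GZMB encodes granzyme B, a serine protease that enters the target and starts apoptosis. SRGN encodes serglycin, the proteoglycan core protein that holds proteases inside granules, in lymphocytes and in myeloid cells alike. CST7 encodes cystatin F, an inhibitor of lysosomal cysteine proteases such as cathepsin C, which activates granzymes and the serine proteases of neutrophil granules. NKG7 is a membrane protein of cytotoxic granules that takes part in their release. NF-kB subunits bind kappaB sites in many immune promoters, and LPS activates them through the receptor TLR4.

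NKG7 lies on chromosome 19 at 51371606 to 51372715, minus strand, CST7 on chromosome 20 at 24949230 to 24959928, plus strand, and SRGN on chromosome 10 at 69088106 to 69104811, plus strand. PRF1 lies on chromosome 10 at 70597348 to 70602775 and GZMB on chromosome 14 at 24630954 to 24634267, both on the minus strand (GRCh38, GENCODE release 29). The promoter windows that follow run from 250 bases before to 50 bases after the RefSeq gene start (GRCh38.p14), in the gene's own direction. They are shown because the knockouts are of factors that bind promoters, and because GZMB and CTSG, neighbours on chromosome 14, had levels at opposite ends of the range. CTSG encodes cathepsin G, a serine protease of myeloid granules. Capitals mark matches to a kappaB motif, GGG and CC with 5 bases of any kind between them, or to an ETS motif, AGGAAG, on either strand. The windows are chr19:51372605-51372904 for NKG7, chr10:70602692-70602991 for PRF1, chr14:24634141-24634440 for GZMB and chr14:24576201-24576500 for CTSG, all on the minus strand. CST7 and SRGN are named only.
NKG7: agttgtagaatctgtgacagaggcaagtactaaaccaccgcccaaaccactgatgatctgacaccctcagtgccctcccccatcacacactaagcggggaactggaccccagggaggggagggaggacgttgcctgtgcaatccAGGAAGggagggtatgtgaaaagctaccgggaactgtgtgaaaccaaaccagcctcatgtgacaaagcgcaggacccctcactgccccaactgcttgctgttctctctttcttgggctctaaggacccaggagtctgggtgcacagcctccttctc
PRF1: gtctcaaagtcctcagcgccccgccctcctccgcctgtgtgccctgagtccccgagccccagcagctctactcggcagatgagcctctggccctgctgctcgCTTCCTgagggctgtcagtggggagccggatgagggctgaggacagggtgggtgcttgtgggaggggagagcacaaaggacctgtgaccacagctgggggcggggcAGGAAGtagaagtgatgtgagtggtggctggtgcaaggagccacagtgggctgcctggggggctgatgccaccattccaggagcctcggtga
GZMB: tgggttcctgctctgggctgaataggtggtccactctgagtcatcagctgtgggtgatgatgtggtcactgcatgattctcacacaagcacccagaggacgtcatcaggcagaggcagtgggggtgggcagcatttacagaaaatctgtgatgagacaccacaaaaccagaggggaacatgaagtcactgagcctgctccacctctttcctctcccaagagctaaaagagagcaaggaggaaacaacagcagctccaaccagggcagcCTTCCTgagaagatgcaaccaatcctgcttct
CTSG: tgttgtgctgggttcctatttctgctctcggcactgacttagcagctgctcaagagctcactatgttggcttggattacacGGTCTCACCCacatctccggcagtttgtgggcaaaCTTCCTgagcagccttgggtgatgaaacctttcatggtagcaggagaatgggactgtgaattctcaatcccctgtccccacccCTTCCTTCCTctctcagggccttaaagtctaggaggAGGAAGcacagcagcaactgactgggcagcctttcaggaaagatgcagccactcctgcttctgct

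The NKG7 window held 1 ETS match, which began at position -106 from the gene start. The PRF1 window held ETS matches at -148 and -42, and the GZMB window held 1 at 19. The CTSG window held a kappaB match at -169 and ETS matches at -134, -51, -47 and -15, of which those at -51 and -47 share bases. A RUNX motif, TGTGGT, searched on both strands and left in lower case, matched at -62 in the PRF1 window and at -190 and -93 in the GZMB window. Of 35116 promoter windows of the same length, 58.7% held the kappaB letters, 33.6% the ETS letters and 13.1% the RUNX letters. A match is a stretch of letters and was not read as a bound site.

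Library totals ran between 12643438 and 22122428 estimated counts. The messenger RNA of the target was under every CTR library of the same treatment in both p50 clones, both cREL clones, p65 replicates 2 and 3 and RELB replicate 1, but not in the others. RELA, which encodes p65, was at 3.2 to 52.1 TPM in LPS libraries of p65 clones, against 26.1 to 38.3 TPM in LPS libraries of CTR clones, and the clone labelled p65 replicate 1 had 52.1 TPM with LPS and 43.7 TPM untreated, above every library of the other genotypes. RELB in the clone labelled RELB replicate 2 was at 19.3 TPM with LPS and 5.83 TPM untreated, within the CTR ranges of 18.4 to 26.2 TPM with LPS and 3.8 to 14.1 TPM untreated. NFKB2, which encodes p52, was at 1.63 and 1.96 TPM in p52 clones with LPS, against 5.19 to 7.51 TPM in CTR, and at 0.842 and 1.53 TPM in p52 clones untreated, within the CTR range of 0.767 to 2.87 TPM. For NFKB1, NFKB2, REL and RELB, a level below CTR with LPS was not particular to the targeted clones. Every clone of another knockout also had less NFKB2 with LPS than any CTR clone. The lowest was p50 replicate 2 (0.971 TPM) and the highest RELB replicate 2 (4.31 TPM). RELB replicate 1 had 11.4 TPM of RELB with LPS, while clones lacking a different subunit reached 9.25 TPM at most (cREL replicate 1). NFKB1, which encodes p50, was at 6.83 and 4.1 TPM in p50 clones with LPS, against 10.3 to 14.5 TPM in CTR. Of the other knockout clones, all but RELB replicate 2 were also below CTR, down to 4.91 TPM in cREL replicate 2. REL, which encodes cREL, was at 7.11 and 2.49 TPM in cREL clones with LPS, against 12.5 to 14.7 TPM in CTR. RELB replicate 1 had 5.78 TPM of REL, while p52 replicate 2, p65 replicates 2 and 3 and RELB replicate 2 were not below CTR. Clones p65 replicate 3 and RELB replicate 2 stood apart by transcript length. In p65 replicate 3 the 873 tested genes with a mean effective length under 800 bases had a median log2 deviation from their own mean of -0.62 with LPS and -1.57 untreated. In RELB replicate 2 that median was -0.31 with LPS and -0.996 untreated, against -0.27 to 0.53 in the other 24 libraries. NKG7, CST7 and SRGN have mean effective lengths of 581.2, 694.3 and 947.0 bases, so results that these clones move are given with and without them.

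NKG7, CST7 and SRGN were all abundant, and in 26 of 28 libraries CST7 lay above SRGN and SRGN above NKG7. On the TPM scale (transcript abundance that the authors scaled by length and depth), CST7 averaged 1615 TPM over the 28 libraries and ranked 53rd of 38244 genes with a value above 0 in any library. SRGN averaged 826.9 TPM and ranked 125th, and NKG7 averaged 339.8 TPM and ranked 433rd. That placed them in the top 0.139%, 0.327% and 1.13% of those genes. The coefficient of variation over libraries was 28.7% for CST7, 19.3% for SRGN and 30.3% for NKG7. PRF1 and GZMB averaged 0.0884 and 0.563 TPM. In 28 of 28 libraries NKG7 was more than 10 times the sum of PRF1 and GZMB. The high companions were thus the inhibitor and the proteoglycan, and the pore-forming protein and the protease were at or near 0.

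NKG7 had 476.0 and 437.0 TPM in p50 clones with LPS, and 491.7 and 356.5 TPM in the same clones untreated. In p52 clones it had 362.7 and 302.2 TPM with LPS, and 446.7 and 366.4 TPM untreated. In p65 clones it had 305.0, 310.4 and 197.4 TPM with LPS, and 246.5, 312.2 and 99.7 TPM untreated. The third p65 clone was the low one under either treatment, and its untreated library was the lowest of all 28. In cREL clones NKG7 had 429.9 and 411.6 TPM with LPS, and 395.9 and 317.0 TPM untreated. In RELB clones it had 308.2 and 234.4 TPM with LPS, and 322.1 and 126.2 TPM untreated. In CTR clones it had 471.8, 309.1 and 339.7 TPM with LPS, and 518.5, 354.6 and 266.5 TPM untreated. The CTR libraries spanned most of the range of the series. Every p50, p52 and cREL library lay within that span, and the 4 lowest libraries of the series were those of p65 replicate 3 and RELB replicate 2. Ordered by mean, p50 with LPS was highest at 456.5 ± 27.6 TPM (SD, n = 2) and untreated p65 lowest at 219.5 ± 109 TPM (SD, n = 3). Of the 11 neighbouring pairs in that order, only p52 with LPS and RELB with LPS were further apart, by 61.1 TPM, than the larger of their SDs, 52.2 TPM, and their libraries still overlapped.

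CST7 had 2086 and 1872 TPM in p50 clones with LPS, and 1985 and 1550 TPM untreated. In p52 clones it had 2158 and 1336 TPM with LPS, and 2436 and 1520 TPM untreated. In p65 clones it had 1463, 1413 and 870.2 TPM with LPS, and 1309, 1640 and 393.7 TPM untreated. The lowest library was again the untreated one of the third p65 clone. In cREL clones CST7 had 2263 and 1909 TPM with LPS, and 2184 and 1391 TPM untreated. In RELB clones it had 1999 and 1636 TPM with LPS, and 2191 and 964.6 TPM untreated. In CTR clones it had 1239, 1222 and 1576 TPM with LPS, and 1498, 1516 and 1584 TPM untreated. The CTR clones were close together when untreated, and the untreated cREL and RELB clones lay on both sides of them. By mean, cREL with LPS was highest at 2086 ± 250 TPM (SD, n = 2) and untreated p65 lowest at 1114 ± 646 TPM (SD, n = 3), and no neighbouring pair in the order differed by more than the larger SD.

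SRGN had 932.7 and 842.6 TPM in p50 clones with LPS, and 950.6 and 860.4 TPM untreated. In p52 clones it had 1044 and 723.9 TPM with LPS, and 970.4 and 716.7 TPM untreated. In p65 clones it had 642.0, 1055 and 876.4 TPM with LPS, and 640.7, 1038 and 503.0 TPM untreated. The p65 clones thus held both high and low libraries. In cREL clones SRGN had 1061 and 945.4 TPM with LPS, and 984.8 and 749.5 TPM untreated. In RELB clones it had 858.2 and 1016 TPM with LPS, and 855.5 and 813.1 TPM untreated. In CTR clones it had 786.0, 646.6 and 592.5 TPM with LPS, and 727.9, 593.8 and 728.1 TPM untreated. On this scale every p50, cREL and RELB library lay above the highest CTR library of the same treatment. By mean, cREL with LPS was highest at 1003 ± 81.7 TPM (SD, n = 2) and CTR with LPS lowest at 675.0 ± 99.8 TPM (SD, n = 3), with no neighbouring pair further apart than the larger SD.

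**Figure D1:**
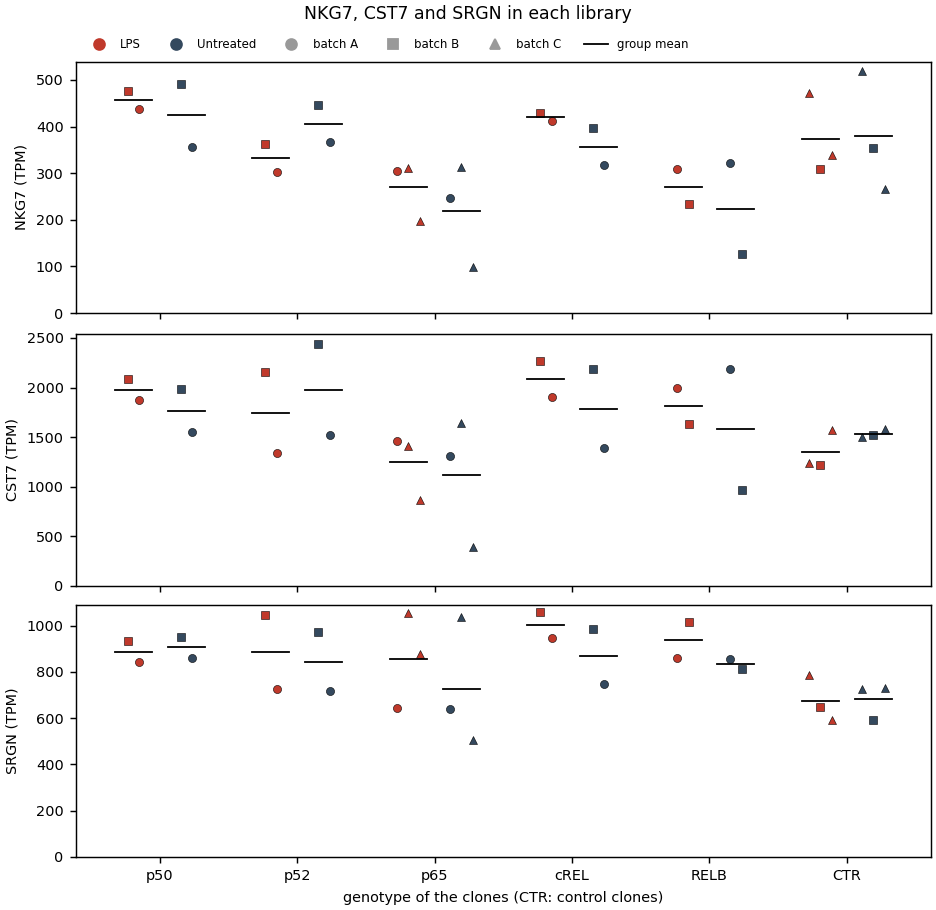
TPM of NKG7, CST7 and SRGN (vertical axes, linear from 0) in each of the 28 libraries by genotype, with LPS libraries in red left of untreated libraries in dark blue, marker shape for batch and a line for the group mean. The lowest library in all 3 panels is untreated p65 replicate 3, at 99.7, 393.7 and 503.0 TPM, and the p50, cREL and RELB points for SRGN lie above the CTR points of the same treatment.

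PRF1 and GZMB, the genes of the lethal cargo, were close to the limit of detection. PRF1 had 35.4 estimated counts in all 28 libraries together and was at 0 in 16 of them. It passed 3 counts in 2 libraries, the LPS library of RELB replicate 2 with 11.4 counts and the untreated library labelled p65 replicate 1 with 4 counts. GZMB had 97 counts in all, was at 0 in 4 libraries and passed 3 counts in 11. Its highest libraries were CTR replicate 2 with LPS at 15 counts and RELB replicate 2 at 12 counts with LPS and 9 untreated, while CTR replicate 3 had 0 counts with LPS. A count of 0 allows up to 3 counts in a library. Summed over the 14 libraries of a treatment, PRF1 came to 0.0913 CPM (counts scaled to the library total) with LPS (exact Poisson 95% interval 0.0572 to 0.138) and 0.0546 untreated (0.0291 to 0.0934). GZMB came to 0.203 with LPS (0.15 to 0.269) and 0.202 untreated (0.149 to 0.267). The intervals of LPS and untreated libraries overlapped for both genes, and they cover counting error only. Reads of GZMB and of the antisense gene AL136018.1, which spans it and averaged 13.5 TPM, cannot be told apart by strand in these libraries. GZMB passed the filter on low counts through its few highest libraries, and PRF1 did not pass it.

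**Figure D2:**
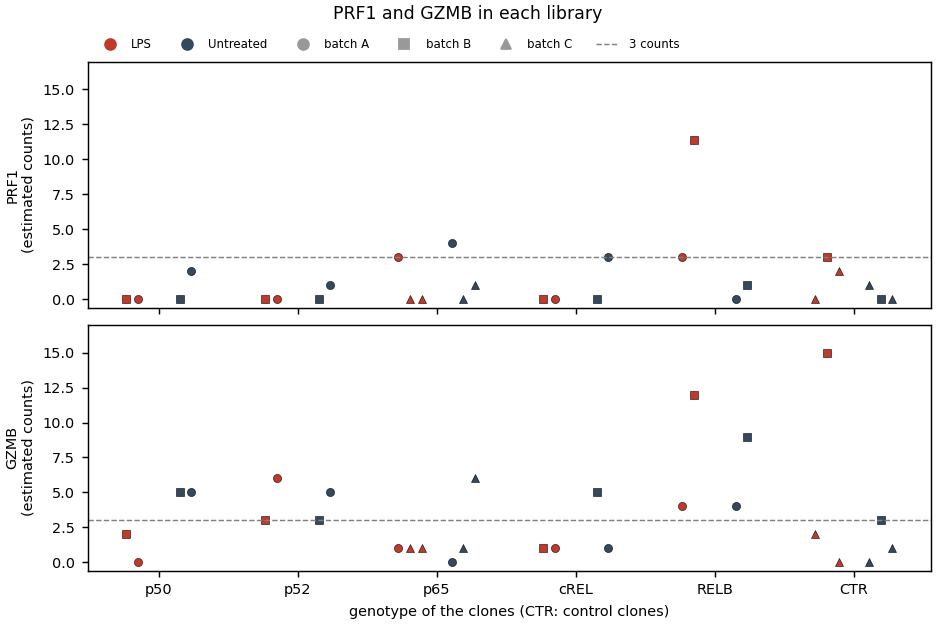
Estimated counts of PRF1 and GZMB (vertical axes, linear) in each of the 28 libraries by genotype, LPS left of untreated, with a dashed line at 3 counts. PRF1 lies above the line in 2 libraries and GZMB in 11, with maxima of 11.4 and 15 counts.

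The other genes of the pathway covered the same range of levels. A list of 35 genes of the cytotoxic granule pathway was read beside the 5, together with 9 genes of myeloid granules. Among the pathway genes most abundant in these cells were CALR (693 TPM), a chaperone of perforin, CTSC (532 TPM), the cathepsin that activates granule serine proteases, and CD63 (494 TPM), a granule membrane tetraspanin. M6PR (351 TPM), a receptor that sorts proteases to lysosomes, RAB27A (308 TPM), which docks granules, and CTSH (295 TPM), another cathepsin, followed. SERPINB1 (238 TPM) and SERPINB6 (108 TPM) encode intracellular inhibitors of granule proteases. VAMP7 (159 TPM) and VAMP8 (149 TPM) encode membrane fusion proteins, and LYST (92.0 TPM) encodes a regulator of lysosome size. Other members of these groups, picked out after their values were seen, were low: the cysteine protease genes CTSL (0.272 TPM) and LGMN (0.309 TPM) and the exocytosis genes SYTL2 (0.469 TPM), SYTL1 (5.73 TPM) and STX11 (9.47 TPM). The lymphocyte granule proteins on the list, picked out in the same way, had mean levels of 0.402 TPM for GZMA, 0.21 TPM for GZMH, 0.0346 TPM for GZMM, 0.34 TPM for GNLY and 0 TPM for GZMK, which was at 0 in 28 of 28 libraries. The myeloid serine protease genes ELANE, CTSG, PRTN3 and AZU1 had 2210, 1950, 1000 and 464 TPM, and LYZ, which encodes lysozyme, had 1050 TPM. MPO, which encodes myeloperoxidase, and BPI, which encodes a bactericidal protein, were low on the myeloid list, at 0.0417 and 1.16 TPM.

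**Figure D3:**
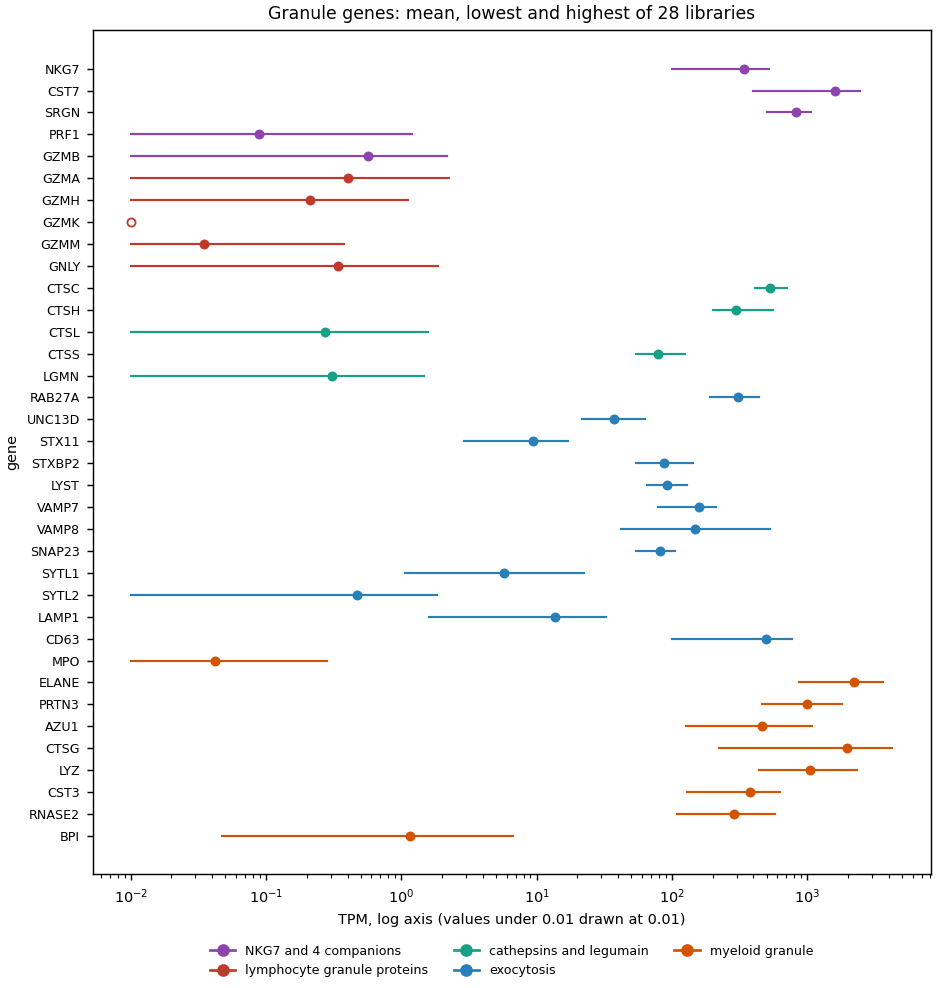
Mean TPM (points) with the lowest and highest of 28 libraries (lines) for NKG7 and 4 companions, lymphocyte granule proteins, cathepsins and legumain, exocytosis genes and myeloid granule genes, on a log axis with values under 0.01 drawn at 0.01. PRF1, GZMB and the 5 lymphocyte granule proteins lie under 1 TPM on average, and NKG7, CST7 and SRGN lie among the abundant myeloid granule genes.

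The label of a monocytic line was checked against its markers. All 10 monocytic markers read had a mean of at least 1 TPM, and their summed level was 1060 to 3260 TPM per library. None of 10 NK cell markers reached a mean of 1 TPM. Their summed level was 1.74 to 8.41 TPM in LPS libraries and 1.33 to 7.46 TPM in untreated libraries. Of 12 T cell markers, 2 reached 1 TPM, CD4 (113 TPM), which monocytic cells also express, and TRAC (3.86 TPM), and CD3D, TRBC2 and CD8B were at 0 in 28 of 28 libraries. Without CD4 the T cell markers summed to 2.19 to 9.70 TPM in LPS libraries and 2.67 to 9.02 TPM in untreated libraries. The defining genes of NK and T cells were thus at or near 0 where NKG7 was at 99.7 TPM or more. In bulk RNA, fewer cells of a type and less RNA per cell cannot be told apart.

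No change with LPS was detectable in NKG7, CST7 or SRGN. Averaged over the 6 genotypes, the log2 fold of LPS over untreated was 0.11 ± 0.20 for NKG7 (95% interval -0.31 to 0.54), 0.08 ± 0.21 for CST7 (-0.37 to 0.52) and 0.13 ± 0.11 for SRGN (-0.10 to 0.36), each ± the model's standard error. The adjusted p was 1 for each (edgeR quasi-likelihood test, Benjamini-Hochberg over 18624 genes). For comparison, 0.403% of all genes tested passed in that average. LPS lay above untreated in 7 of 14 clones for NKG7, in 8 for CST7 and in 9 for SRGN, with median clone differences of 0.02, 0.03 and 0.06 on the log2 scale. The largest clone differences were those of p65 replicate 3, at 1.32 for NKG7, 1.40 for CST7 and 1.04 for SRGN, and RELB replicate 2 came next, at 1.07, 1.00 and 0.55. Those are the clones in which short transcripts as a class were low, and lower untreated than with LPS, and the part of that in these differences was not tested. Without both clones the averages were 0.03 for NKG7, -0.01 for CST7 and 0.05 for SRGN. GZMB had an average of -0.47 ± 0.54 (adjusted p = 1, edgeR), from 0 to 15 counts a library.

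Within single genotypes, 0 of the 18 LPS tests of NKG7, CST7 and SRGN passed, and 0 had an unadjusted p under 0.05. The share of all genes that passed was 0.0161% in p50, 0.0215% in p52, 0.0268% in p65, 0.0107% in cREL, 0.129% in RELB and 0.408% in CTR. The difference in LPS response between knockout and CTR passed for none of the 3 genes, with 0 of 15 tests under an unadjusted p of 0.05, and backgrounds of 0% for p50, p52, cREL and RELB and 0.0161% for p65. In p65 the LPS fold was 0.33 for NKG7, 0.19 for CST7 and 0.26 for SRGN with all clones, and 0.13, -0.01 and 0.01 without both clones that stood apart. In RELB it was 0.33, 0.27 and 0.28 with all clones, and -0.03, -0.09 and 0.06 without them, which leaves RELB replicate 1 alone. The interval of the LPS effect in CTR was -0.92 to 0.89 for NKG7 and -0.48 to 0.49 for SRGN. Of the pathway list, 27 genes were tested and 1 rose with LPS. That was PRDM1, which encodes the transcription factor Blimp-1 of cytotoxic and plasma cells, with a log2 fold of 0.63 ± 0.13 on average (adjusted p = 0.0371, edgeR) and 1.70 ± 0.29 in CTR (adjusted p = 0.00617). The median log2 fold of the 27 was 0.02 in the average, against 0.00 over all genes. None of the 8 myeloid granule genes tested passed in any comparison.

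SRGN, which encodes the proteoglycan, was the member that lay most regularly above CTR in the knockouts, but it did not pass the test. On the TPM scale it exceeded the highest CTR library in 9 of 11 knockout libraries with LPS and in 8 of 11 untreated. On the TMM-scaled log2 CPM behind the tests it did so in 7 of 11 with LPS and in 6 of 11 untreated, and RELB replicate 1 with LPS, cREL replicate 2 untreated and RELB replicate 2 untreated were then among the libraries that did not. The share of all genes that lay above CTR in as many knockout libraries was not computed on either scale. With LPS, the log2 fold of knockout over CTR was 0.90 ± 0.28 in cREL (adjusted p = 0.269), 0.74 ± 0.28 in p50 (0.380), 0.65 ± 0.28 in RELB (0.452), 0.58 ± 0.28 in p52 (0.518) and 0.23 ± 0.24 in p65 (0.740), by edgeR with Benjamini-Hochberg adjustment. The same 3 CTR clones stand in all 5 comparisons. With LPS, 0.199% of all genes passed in cREL, 0.129% in p50, 0.0483% in RELB, 0.0698% in p52 and 0.993% in p65. Untreated, the log2 fold for SRGN was 0.79 ± 0.29 in p50 (adjusted p = 0.684), 0.64 ± 0.29 in cREL (0.833), 0.57 ± 0.29 in p52 (0.677), 0.38 ± 0.29 in RELB (0.678) and -0.02 ± 0.24 in p65 (0.980), by the same test. The backgrounds untreated were 0% in p50, cREL and p52, 0.0107% in RELB and 0.0537% in p65. Across NKG7, CST7 and SRGN, 0 of 15 comparisons passed with LPS and 0 of 15 untreated, with 3 and 3 at an unadjusted p under 0.05, and DESeq2 also called 0 and 0. Of all 18624 genes, 1702 to 2315 a comparison had an unadjusted p under 0.05 with LPS, and 1077 to 2398 untreated (edgeR).

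The SRGN values depended on the libraries and on the batch term. Leaving out p65 replicate 3 and RELB replicate 2 was an alternative chosen after seeing the data. In that fit cREL passed with LPS at 1.04 (adjusted p = 0.00889, edgeR), beside 0.327% of all genes. With LPS p50 passed at 0.88 (adjusted p = 0.0297, edgeR), beside 0.271% of all genes. RELB with LPS was at 0.92, but rested on RELB replicate 1 alone, whose batch A held no CTR clone. Untreated, the same fit gave 0.93 in p50, 0.86 in RELB (the same clone), 0.77 in cREL, 0.71 in p52 and 0.36 in p65. None of the p50, cREL, p52 and p65 values passed untreated (lowest adjusted p = 0.0784, in p50, edgeR). Without p65 replicate 3 alone, cREL passed at 1.00 (adjusted p = 0.0409), beside 0.2% of all genes. With no batch term the LPS values were 0.56 in cREL, 0.40 in p50, 0.26 in p52 and 0.32 in RELB, and the untreated values were 0.45 in p50 and 0.31 in cREL. In batch B, which held 1 clone of each of these knockouts and 1 CTR clone, knockout minus CTR with LPS was 0.84 for cREL, 0.67 for p50, 0.76 for p52 and 0.59 for RELB. In the same batch untreated it was 0.84 for cREL, 0.83 for p50, 0.79 for p52 and 0.13 for RELB. Those values have 1 library on each side and carry no test. The median log2 fold of the 8 myeloid granule genes with LPS was 0.86 in cREL, 0.84 in p50, 0.33 in RELB and 0.83 in p52, against -0.02, -0.05, -0.04 and -0.02 over all genes, with 0 of 8 passing in each.

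NKG7 was lower on average in p65 and RELB clones, and this did not pass either. The log2 fold of p65 over CTR was -0.68 ± 0.44 with LPS (adjusted p = 0.559, edgeR) and -1.02 ± 0.44 untreated (adjusted p = 0.341, edgeR). In RELB it was -0.56 ± 0.54 with LPS (adjusted p = 0.789, edgeR) and -0.91 ± 0.55 untreated (adjusted p = 0.571, edgeR). Without p65 replicate 3 the untreated p65 value was -0.57, and without RELB replicate 2 the untreated RELB value was -0.14. Without both clones, p65 was at -0.29 with LPS and -0.44 untreated. RELB was then at 0.08 with LPS and 0.10 untreated, so the RELB direction turned under both treatments. The RELB values without RELB replicate 2 rest on RELB replicate 1 alone, in batch A. Leaving out CTR replicate 1, the highest control, gave -0.62 for untreated p65, and leaving out p65 replicate 2 gave -1.62. Within batch C, with 2 clones on each side, p65 minus CTR was -0.90 with LPS and -1.35 untreated, and within batch B, with 1 clone on each side, RELB minus CTR was -0.49 with LPS and -1.81 untreated. In p65 replicate 3 untreated, NKG7 deviated from its own mean by -2.01 (log2), and 22% of the short transcripts deviated as far or further down. In RELB replicate 2 untreated it deviated by -1.73, and 6.87% of the short transcripts did so. The part of the short transcripts in the NKG7 folds was not tested. The p65 values include the clone labelled p65 replicate 1, and the RELB values the clone labelled RELB replicate 2, whose target messenger RNA was not below CTR. In p50, p52 and cREL the NKG7 folds lay between -0.19 and 0.36 over both treatments, and between 0.04 and 0.60 without both clones.

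CST7 had folds between -0.61 and 0.63 in the 10 comparisons with CTR, and none passed. The widest were 0.63 ± 0.55 in cREL with LPS (adjusted p = 0.821, edgeR) and -0.61 ± 0.46 in untreated p65 (adjusted p = 0.618, edgeR). Without both clones that stood apart, CST7 with LPS was at 0.97 in RELB, 0.91 in cREL, 0.85 in p50, 0.50 in p52 and 0.17 in p65. Untreated it was then at 0.90 in RELB, against -0.14 with all clones, 0.57 in p52, 0.54 in p50, 0.45 in cREL and 0.01 in p65. The RELB values of that fit rest on RELB replicate 1 alone. None of the others passed (lowest adjusted p = 0.0811, in cREL with LPS, edgeR), though RELB untreated and p65 under both treatments had turned in sign. With all clones its 95% intervals reached from -1.57 to 1.79. GZMB had folds with standard errors of 1.23 to 1.72 on the log2 scale and was too low to be read between groups.

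**Figure D4:**
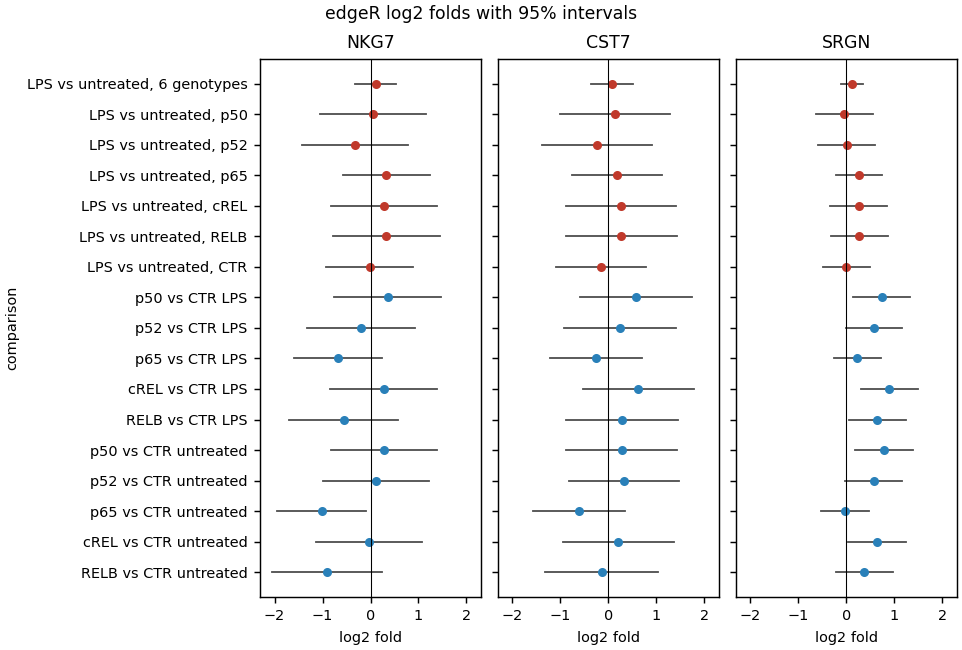
Log2 folds from the edgeR model (points) with 95% intervals (lines) for NKG7, CST7 and SRGN, for LPS over untreated in red and for knockout over CTR in blue. The LPS intervals all include 0, and the SRGN intervals of p50 and cREL over CTR lie above 0 under both treatments, as does that of RELB with LPS, while that of NKG7 in untreated p65 lies below 0, all before adjustment over all genes.

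Across clones, CST7 varied with NKG7 under both treatments and SRGN did so untreated, while SRGN with LPS did not pass. None of these relations passed without the clones that stood apart, over 12 clones. Over the 14 LPS libraries Pearson's r with NKG7 (log2 CPM) was 0.693 for CST7 (permutation p = 0.0059, adjusted over 6 relations 0.012), with Spearman's rho of 0.666 (permutation p = 0.011, adjusted 0.032). For SRGN it was 0.343 (permutation p = 0.23, adjusted 0.27) with rho of 0.490 (p = 0.077 by permutation, adjusted 0.12). Over the 14 untreated libraries r was 0.906 for CST7 (permutation p = 1.8e-04, adjusted 0.0011; rho 0.793, permutation p = 0.0012, adjusted 0.0072). For SRGN untreated r was 0.771 (permutation p = 0.0016, adjusted 0.0049) and rho 0.618 (permutation p = 0.022, adjusted 0.044). GZMB supplied the other 2 of the 6 relations, but at 0 to 15 counts a library its r is set by a few libraries and was not read.

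The 2 clones farthest from the median NKG7 level were p65 replicate 3 and RELB replicate 2. Without them, over 12 clones, r was 0.581 with LPS and 0.597 untreated for CST7, and 0.569 with LPS and 0.568 untreated for SRGN, and none of these passed after adjustment (permutation test, adjusted p = 0.085 each). For SRGN with LPS that value lies above the 0.343 over all clones, while r over all clones was 0.0924 on log2 TPM with a pseudocount of 1. Centred within batch, r over 14 clones was 0.763 with LPS and 0.914 untreated for CST7, and 0.369 with LPS and 0.771 untreated for SRGN. No batch holds 6 clones, so no value within 1 batch is given. Of 9981 genes with a mean of at least 5 CPM, 3.86% with LPS and 2.04% untreated followed NKG7 at least as closely as CST7 did, and 14.8% and 7.39% at least as closely as SRGN did. The libraries share the depth and length differences described above.

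The 5 genes most like each member over all 28 libraries were taken by Pearson's r of log2 CPM. For NKG7 they were AP2S1 (r = 0.956), FXYD5 (0.955), TSPO (0.954), ETHE1 (0.950) and PSMA7 (0.949), with effective lengths of 551.9 to 746.0 bases. AP2S1 encodes a subunit of a clathrin adaptor and PSMA7 one of the proteasome. For CST7 they were PRDX5 (r = 0.969), NPC2, HSPB1, CHMP2A and ATP6V0E1 (0.952), of which NPC2 carries cholesterol out of lysosomes and ATP6V0E1 belongs to the proton pump that acidifies them, with effective lengths of 641.2 to 816.8 bases. For SRGN they were EAF2 (r = 0.825), PQBP1, TAF9, EIF6 and ERGIC3 (0.789), with effective lengths of 712.4 to 1041 bases. The median r over the 9981 genes was -0.05 with NKG7, -0.07 with CST7 and -0.03 with SRGN. These are descriptions over libraries in which 2 clones had low short transcripts.

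**Figure D5:**
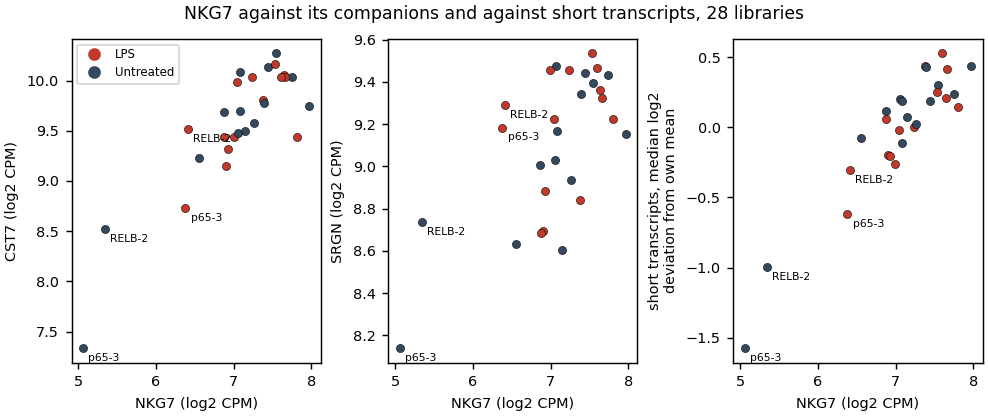
Each point is a library (red LPS, dark blue untreated): CST7, SRGN and the median log2 deviation of short transcripts (vertical axes) against NKG7 (horizontal axis, log2 CPM). The untreated libraries of p65 replicate 3 and RELB replicate 2 lie lowest for NKG7, where the short transcripts were at -1.57 and -0.996.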

How the data were processed

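Polyadenylated RNA of 28 libraries was read in pairs after full-length cDNA amplification by PCR, per the labels' protocols. Strand was not marked and there were no molecular identifiers, so reads are not independent molecules. The authors deposited estimated counts per gene, TPM (scaled by length and depth) and effective lengths in bases. The submitters' processing notes name FastQC 0.11.7, Salmon 0.11.3 and GRCh38, with no annotation release. GENCODE release 29 held all 56809 symbols and gave the positions.

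Counts were rounded to whole numbers, filtered with filterByExpr (minimum count 10, minimum total 15, 18624 genes kept) and scaled by TMM. They were tested with edgeR 4.0.16 in R 4.3.3 by a robust quasi-likelihood model of 12 groups with batch as an additive term (14 residual degrees of freedom, biological coefficient of variation 31.7%). Calls are at a Benjamini-Hochberg adjusted p under 0.05 over all genes within each of 22 comparisons. The p-values rest on the spread between clones within groups, pooled over both treatments. The main model treats the untreated and LPS libraries of a clone as independent, so p-values of knockout against CTR can be too small. For LPS against untreated it keeps clone differences in the error, so those intervals can be too wide. The standard error of the NKG7 LPS average was 0.20 in the main model and 0.13 with each clone as a block. Log2 CPM used a prior count of 2. Relations over 14 clones used 100000 permutations, two-sided, in SciPy 1.17.1. The permutations moved clones freely across genotypes and batches, so their p-values do not separate clone differences from genotype or batch differences. Libraries with the same genotype and number were taken as 1 clone, from the labels. The deviations of a clone's 2 libraries from their group means correlated at 0.203 to 0.441. In the 4 genotypes with 2 clones both have the same value by construction, so these count once a genotype.

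Alternatives were DESeq2 1.42.0, its size factors in edgeR, no filter, no batch term, each clone as a block, an effective length offset, single batches and each clone left out. Genes named beside the 5 were the most abundant or passing ones of a pathway list of 35 genes, low members of that list marked as picked after their values were seen, a list of 9 myeloid granule genes, and the 5 most correlated genes per member. The members and lists were chosen with earlier results of these data known. The scripts were tested on simulated data.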

Additional observations from a re-analysis of the deposited data

Results flagged for a closer look

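For some pairs of genotypes, every clone of 1 genotype had more of a gene with LPS than untreated and every clone of the other had less. These differences between genotypes were not tested pair by pair, and each rests on 2 clones a genotype. The share of all genes with such a pair was not computed, so the pattern is not read as particular to these genes. Some of the values lie close to 0. For NKG7, the log2 difference of LPS minus untreated was 0.0907 and 0.54 in the cREL clones and -0.31 and -0.33 in the p52 clones. For CST7 it was 0.0245 and 0.26 in the p50 clones, 0.0336 and 0.56 in the cREL clones, and -0.22 and -0.25 in the p52 clones. For SRGN it was 0.0914 and 0.44 in the cREL clones, 0.0554 and 0.55 in the RELB clones, and -0.0717 and -0.0195 in the p50 clones.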

How the results depend on the processing

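With edgeR or DESeq2, none of the 4 tested genes was called for LPS or for a difference in LPS response under any alternative run. Each clone as a replicate block, which pairs the libraries of a clone (8 residual degrees of freedom, biological coefficient of variation 21.0%), gave LPS averages of 0.19 for NKG7, 0.15 for CST7 and 0.15 for SRGN (adjusted p = 0.829, 0.886 and 0.759) and changed no call. For knockout against CTR, calls over the 4 genes moved from 0 to 4 untreated and to 2 with LPS when low genes were not filtered out and PRF1 was tested too: NKG7 in p65 (-0.99 untreated, adjusted p = 2.0e-04; -0.66 with LPS, adjusted p = 0.0462), NKG7 in RELB (-0.91 untreated, adjusted p = 0.0261), CST7 in untreated p65 (adjusted p = 0.0293), SRGN in p50 (0.80 untreated, adjusted p = 0.0421) and SRGN in cREL (0.90 with LPS, adjusted p = 0.00427). Without the filter 0.45 to 2.6% of all genes passed in those comparisons, and the cause was not tested. Leaving out single clones gave 0 to 1 calls with LPS and 0 untreated. Leaving out p65 replicate 3 and RELB replicate 2 together let SRGN pass with LPS in cREL and p50. RELB then rested on RELB replicate 1 alone. Leaving out both put the CST7 average for LPS at -0.00948 and NKG7 in untreated RELB at 0.10, against -0.91 with all clones and -1.81 in batch B alone.

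The relation of CST7 to NKG7 no longer passed at r = 0.581 (LPS) and 0.597 (untreated) without the 2 farthest clones, or at 0.604 (LPS) on log2 TPM with a pseudocount of 1. That of SRGN untreated no longer passed at 0.568 and 0.527 under the same alternatives, and r of GZMB untreated, too low in counts to be read, was 0.317 without the 2 clones, against -0.311 with them. Groups of 2 or 3 clones limit all comparisons, and depth limits PRF1 and GZMB.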

Other observations

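Some granule serine protease genes sat at opposite levels within shared stretches of the genome (GRCh38, GENCODE release 29). On chromosome 14, CTSG lies 54.7 kb from GZMB on the same strand and averaged 1950 TPM, with 221 TPM in its lowest library, against 0.563 TPM for GZMB. GZMH lies between them, 21.3 kb from GZMB, and averaged 0.21 TPM. On chromosome 19, GZMM averaged 0.0346 TPM, while AZU1, 275 kb away, averaged 464 TPM and ELANE, 301 kb away, averaged 2210 TPM. NKG7, also on chromosome 19, stood alone among its neighbours: CLDND2 and AC008750.8 on one flank averaged 0.462 and 1.46 TPM, and LIM2 and C19orf84 on the other were at 0 in every library. GZMA and GZMK, both on chromosome 5, were both low, at 0.402 and 0 TPM. The neighbours of GZMB and NKG7 were picked by position and the genes on chromosomes 19 and 5 as serine protease genes, and no test was made.

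Some regulators and effectors of killing outside the granule, picked out of the pathway list after their values were seen, were also low. SERPINB9, which encodes the inhibitor of granzyme B, averaged 0.104 TPM, but SERPINB1 and SERPINB6 of the same group averaged 238 and 108 TPM. The death ligand genes FASLG and TNFSF10 averaged 0.119 and 2.72 TPM. TBX21 and EOMES, which encode transcription factors of cytotoxic lymphocytes, averaged 0.00759 and 0.0203 TPM and were at 0 in 25 of 28 libraries each. ZNF683 was at 0 in 28 of 28, and RUNX3 and PRDM1 averaged 6.06 and 5.86 TPM.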
